A study of Mus musculus with 10 samples.

Results

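The mouse genome (build mm10) carries 39 protein-coding Hox genes, taken here as every protein-coding gene of the annotation whose symbol is Hoxa, Hoxb, Hoxc or Hoxd followed by a number. They make up 39 of the 21627 protein-coding genes used as background and lie in 4 clusters: 11 genes of Hoxa on chromosome 6, 10 of Hoxb (chr11:96194316-96368254), 9 of Hoxc (chr15:102921131-103036856) and 9 of Hoxd (chr2:74668225-74765142). The genes and the 100 kb beyond each outer gene were examined in 8 peak lists from retina of C57BL/6 mice. For H3K27ac and H3K27me3, chromatin of microdissected retina at postnatal day 0 was immunoprecipitated, with 1 control (genotype given as wild type) and 1 Casz1 conditional knockout (cKO) library per mark; the cKO tissue was taken from the peripheral retina by its epifluorescence, and the control was not said to be peripheral. For ATAC-seq, which maps open DNA by the cuts of the transposase Tn5, 2 control and 2 cKO libraries were made from retinal explants labelled postnatal day 2 that had been transfected with a plasmid encoding GFP, alone for the control or with Cre for the cKO, kept 2 days ex vivo and sorted as 50000 live GFP-positive cells each. The sources used here do not give the allele that Cre deletes, what drove Cre in the immunoprecipitated tissue or whether animals were pooled. Only the positions of called peaks were available, so every value is a presence, a number of covered bases or a distance, and the depth behind it is unknown.

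Hox genes encode homeodomain transcription factors that give body segments, limbs and hindbrain their identity along the head-to-tail axis. Their order on the chromosome follows the order in which they are used along that axis: low-numbered (anterior) genes at one end, Hox13 (posterior) genes at the other. The retina arises from the forebrain, anterior to the territory where Hox genes act, and in such tissue the clusters are a textbook target of the Polycomb complexes, which place H3K27me3 on silent developmental genes. H3K27ac lies at active promoters and enhancers and cannot sit on the same lysine as H3K27me3.

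All 39 Hox genes lay wholly inside H3K27me3 in both libraries. Of all genes, 2.33% in control and 2.32% in cKO were wholly covered, and 6.02% and 5.85% were covered over at least 50% of their length. The mark did not stop between the genes. It covered 100% of the Hoxa, Hoxc and Hoxd spans in both libraries, and of Hoxb in cKO. In control the Hoxb span was broken by a single gap of 243 bp (chr11:96240474-96240716), 43863 bp from Hoxb13 and 30614 bp from Hoxb9, in the long stretch without protein-coding genes that separates Hoxb13 from the rest of its cluster. An ATAC peak touched this gap in control replicate 2 and cKO replicate 1. Immunoprecipitated retina is a mixture of cells, so a region covered by a peak may be marked in some cells and not in others, and a change in the share of marked cells cannot be told apart from a change of mark per cell.

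The H3K27me3 peaks over the Hox clusters were the 4 widest in each library, in lists whose median peak was 324 bp wide in control and 315 bp in cKO. The Hoxc peak was first in both, at 261754 bp in control and 270403 bp in cKO. The Hoxa peak measured 191630 bp in control and 191136 bp in cKO and also took in Evx1, an even-skipped homeobox gene beside the cluster. The Hoxd peak measured 138735 bp in control and 133634 bp in cKO and took in Evx2. The Hoxb peak measured 146225 bp in control, where the small gap split off a further peak of 96159 bp with Hoxb13 and Ttll6, and 236257 bp in cKO, where it was unbroken. In all, 7 peaks in control and 5 in cKO were wider than 100 kb, and those that were not Hox peaks did not exceed 108311 bp in control and 105060 bp in cKO.

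**Figure D1:**
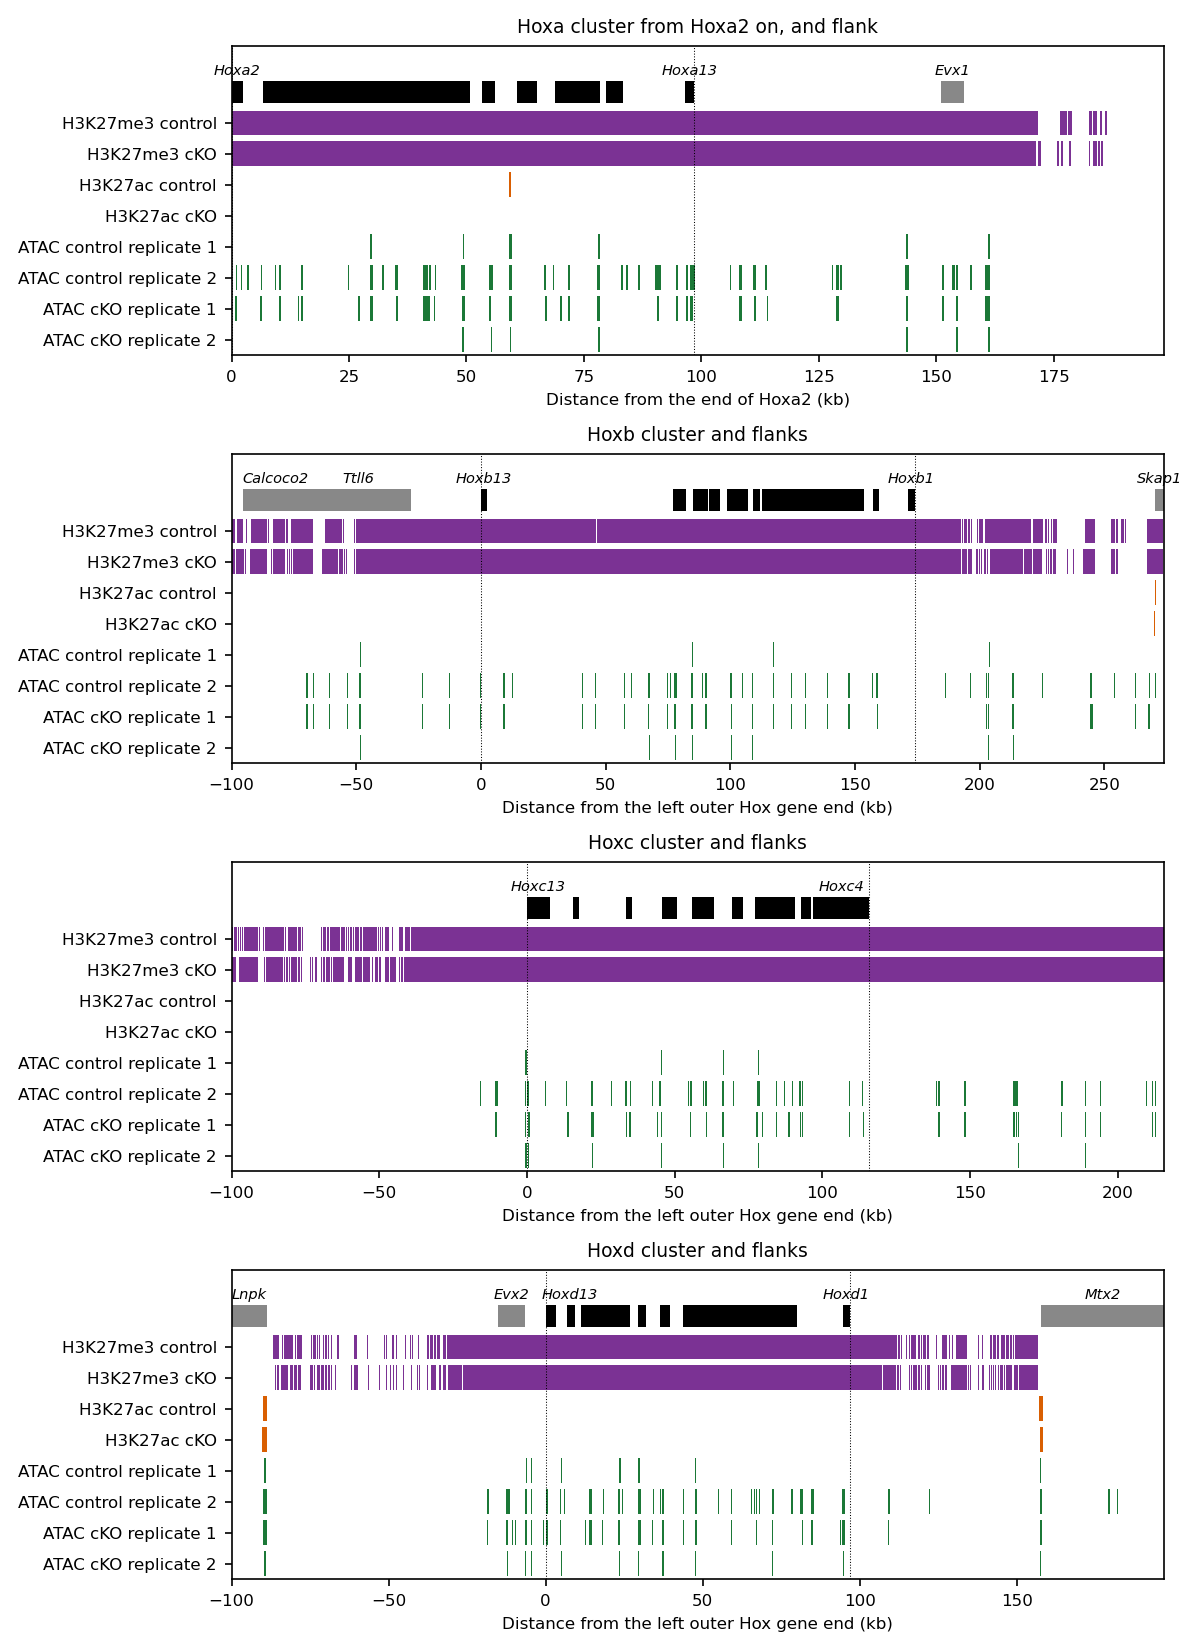
Peaks of all 8 lists over each Hox cluster and its 100 kb flanks, plotted as distance in kb from the left end of the drawn Hox genes; each row is 1 library, Hoxa is drawn from Hoxa2 on, black boxes are Hox genes, grey boxes other protein-coding genes, dotted lines the outer gene ends, and narrow peaks are widened so that they stay visible. H3K27me3 fills every cluster in both genotypes, H3K27ac is all but absent, and at Hoxd acetylated peaks lie at Lnpk and Mtx2, outside an unbroken H3K27me3 block that is followed on both sides by broken runs of peaks.

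By the rule used to compare genotypes, a gene was called when the bases covered within it and 1 kb either side differed at least 1.5 fold between the libraries, with at least 500 bp in the higher one. None of the 39 Hox genes was called for H3K27me3, against 6% of 6671 genes tested called higher and 8% called lower in cKO. No Hox gene had enough H3K27ac to be tested; of the 13941 genes tested for that mark, 1.9% were called higher and 4.33% lower. With 1 library per genotype there is no test. The rule also has little room to register a change here, since a window that is wholly covered in both libraries has equal values, and a change in the height of the mark is not recorded in the lists.

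The blocks ended outside the genes, at very different distances. The end of a block is given as the far end of the unbroken peak that crosses the outer Hox gene end. Of the anterior sides, those of Hoxb, Hoxc and Hoxd are given. Past Hoxb1 H3K27me3 ran 18687 bp in control and 18768 bp in cKO. Past Hoxd1 it ran 10462 bp in control and 10263 bp in cKO. Hoxc lacks the lowest-numbered genes, and past Hoxc4, its first gene, the block ran 115016 bp in control and 114897 bp in cKO, beyond the 100 kb examined elsewhere and far longer than past Hoxb1 or Hoxd1. It ended in a stretch between genes, 1418 bp from Smug1 in control and 1537 bp in cKO. Smug1 encodes a uracil DNA glycosylase of base excision repair. The next H3K27ac peak of the same genotype began 3632 bp beyond the block in control and 3750 bp in cKO. Acetylation was also called inside the block, past 100 kb from Hoxc4. There H3K27ac covered 0.589% of the long noncoding RNA gene D930007P13Rik in control and 0.505% in cKO. H3K27me3 covered 100% of that gene in both libraries.

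On the posterior sides, past Hoxa13 the block ran 73235 bp in control and 72802 bp in cKO, over the long noncoding RNA gene Hottip and over Evx1, which lies 52618 bp from the cluster. Past Hoxb13 it ran 50001 bp in control and 43550 bp in cKO, and ended inside Ttll6, a tubulin polyglutamylase gene, in both. Past Hoxc13 it ran 31012 bp in control and 39780 bp in cKO. Past Hoxd13 it ran 31355 bp in control and 26453 bp in cKO, over Evx2. The median over the 3 anterior ends was 18687 bp in control and 18768 bp in cKO, and over the 4 posterior ends 40678 bp and 41665 bp. At Hoxb and Hoxd the posterior end was the farther from the genes, and at Hoxc the anterior one was.

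The 3 anterior ends lay within 81 to 199 bp of each other in the 2 libraries, and the 4 posterior ends within 433 to 8768 bp. At 2 anterior and 3 posterior borders the cKO block was the shorter, by 119 and 199 bp and by 433, 4902 and 6451 bp; at Hoxb1 it was longer by 81 bp and at Hoxc13 by 8768 bp. For scale, the 1772 ends of the 886 control H3K27me3 peaks of at least 10 kb were matched to the cKO list. Their median shift was 346.5 bp, with quartiles at 92 and 1123.25 bp, and 10.2% shifted by at least 4 kb, as the Hoxb, Hoxc and Hoxd posterior ends did. At those 3 posterior borders the next peak outward began after 409, 192 and 248 bp in control and 194, 123 and 149 bp in cKO, so where the unbroken block ends rests on short breaks. Breaks were as short at anterior borders that shifted little, 237 bp in control and 263 bp in cKO past the Hoxb1 block and 199 and 134 bp past the Hoxd1 block. The split by side was seen in the values and then described, the direction of the posterior shifts differed between clusters, and 1 library per genotype gives no measure of the spread between libraries.

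**Figure D2:**
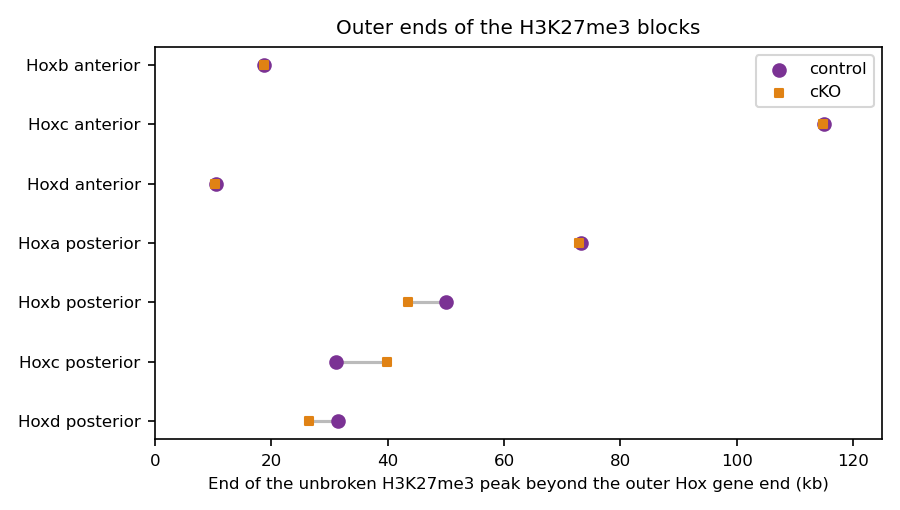
Distance in kb from the outer Hox gene end to the end of the unbroken H3K27me3 peak for 7 cluster borders, with 1 point per library (circle control, square cKO). At the 3 anterior borders the points coincide to within 81 to 199 bp, and at the posterior borders of Hoxb, Hoxc and Hoxd they differ by 4902 to 8768 bp.

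Outside the blocks the mark went on as broken runs of smaller peaks. When peaks were joined across gaps of up to 5 kb, the territory of Hoxd reached 86874 bp past Hoxd13 in control and 86312 bp in cKO, and 59871 bp past Hoxd1 in control and 59756 bp in cKO. These joined limits lay near acetylated gene ends. They rest on the 5 kb rule: joined over gaps of up to 2 kb, the run reached 37619 bp past Hoxd13 and 37217 bp past Hoxd1 in control, and 37684 and 16018 bp in cKO, well short of Lnpk (88767 bp) and Mtx2 (60670 bp). With peaks of at least 300 bp and the 5 kb rule it reached 40774 and 37217 bp in control and 37684 and 59756 bp in cKO. On the Hoxd13 side the first H3K27ac peak, at the end of Lnpk, which encodes a protein of the endoplasmic reticulum, began 1776 bp beyond the limit joined over 5 kb in control and 2420 bp in cKO. On the Hoxd1 side the peak at the end of Mtx2, a gene of mitochondrial protein import, began 433 bp beyond the limit in control and 601 bp in cKO. Each of these 2 acetylated gene ends held an ATAC peak in all 4 libraries, and H3K27me3 covered 4.78% of Lnpk in control and 6.66% in cKO, and 0% of Mtx2.

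Beyond Hoxa13 the joined run reached 87759 bp in control and 86916 bp in cKO. Beyond Hoxb1 it reached 57127 bp in control and 72217 bp in cKO, and beyond Hoxc13 it reached 69659 bp in control and was still open at 100 kb in cKO. There the cKO list held small peaks in stretches that were gaps of over 5 kb in control. Beyond Hoxb13 the run was still open at 100 kb in both libraries.

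**Figure D3:**
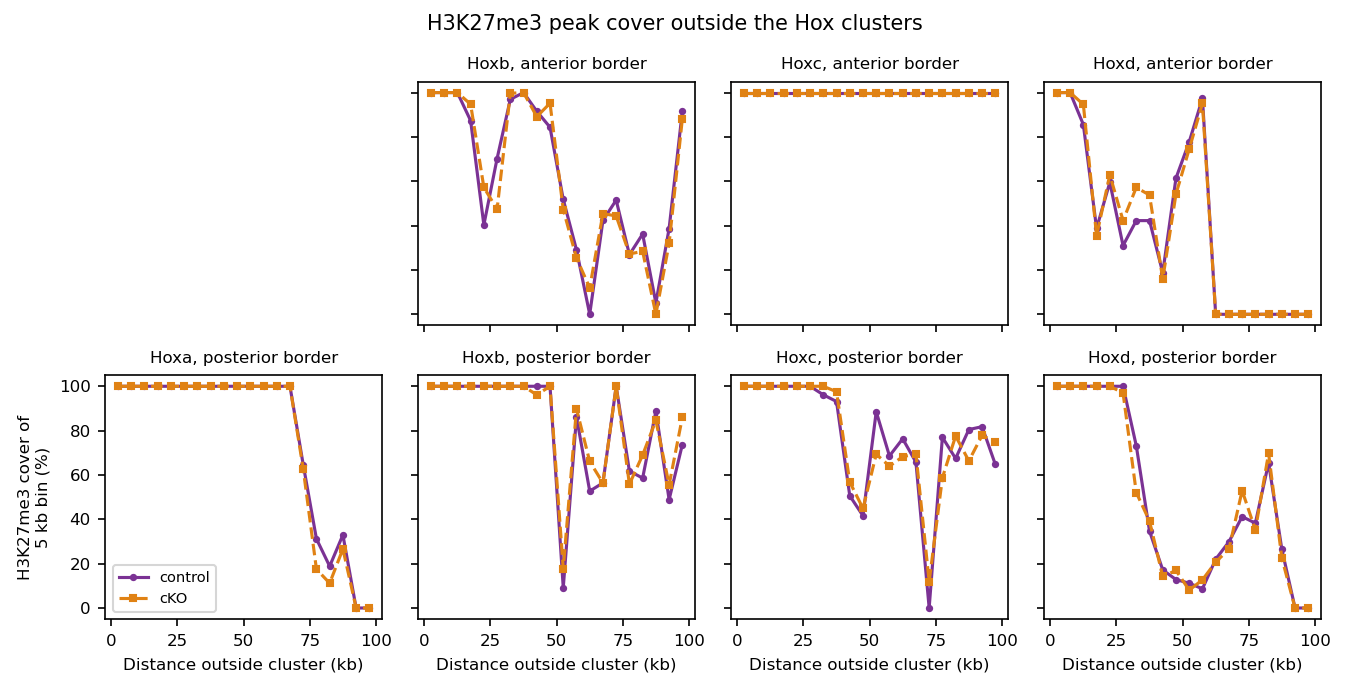
Percent of each 5 kb bin covered by H3K27me3 peaks, from 0 to 100 kb outside the clusters (upper row, anterior borders of Hoxb, Hoxc and Hoxd; lower row, posterior borders; solid purple line control, dashed orange line cKO, 1 library each). Cover stays at 100% outside Hoxc4. Past Hoxd1 it falls to 0% from 60 kb on, where Mtx2 begins. Past Hoxd13 it falls to 0% from 90 kb on, inside Lnpk.

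H3K27ac was nearly absent. No Hox gene had an H3K27ac peak within 1 kb of a gene end in either library, against 61.4% of protein-coding genes in each. Inside the 492097 bp of the 4 clusters the control list held 1 peak and the cKO list none. That peak was 196 bp wide (chr6:52221526-52221721), lay between Hoxa7 and Hoxa9 at 1376 bp from Hoxa9, and was covered over all 196 bp by H3K27me3 in both libraries. It fell in an ATAC region that was called in all 4 libraries. In the flanks, H3K27ac peaks lay at Lnpk and Mtx2 in both libraries and at the end of Skap1, a gene of T cell receptor signalling 96316 bp beyond Hoxb1. The Skap1 peaks, 192 bp in control and 244 bp in cKO, lay wholly inside H3K27me3. The cKO list held 1 more flank peak, of 220 bp, 7511 bp from Skap1 and outside H3K27me3 in both libraries.

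ATAC peaks, in contrast, were dense inside the clusters. Control replicate 1 had 3.05 peaks per 100 kb in the clusters against 1.55 over the genome. Control replicate 2 had 21.5 against 4.24. In cKO replicate 1 there were 16.3 against 3.59, and in cKO replicate 2 there were 4.88 against 2.33. All 4 libraries were denser in the clusters than over the genome, while the flanks held between 1.125 and 7.75 peaks per 100 kb and were below the genome in control replicate 1 and cKO replicate 2. Hox clusters are rich in genes, and no correction for gene density was made.

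**Figure D4:**
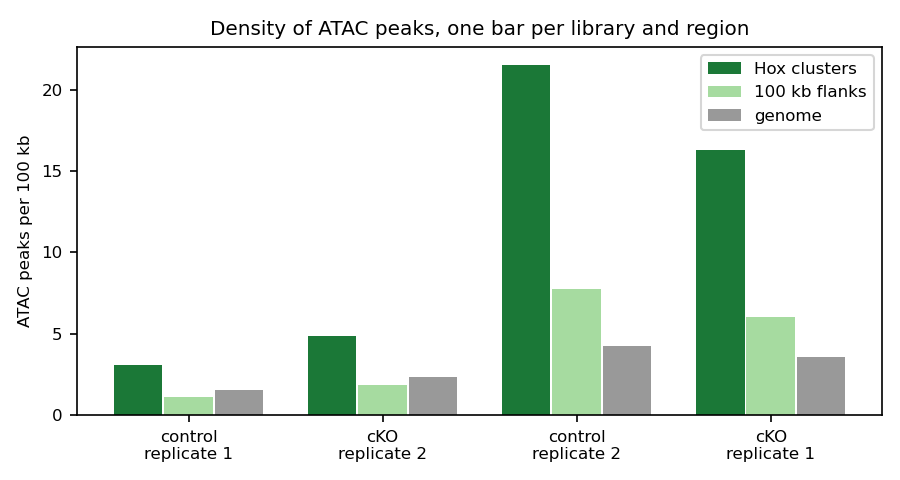
ATAC peaks per 100 kb in the 4 Hox clusters, in their 8 flanks of 100 kb and over chromosomes 1 to 19 and X, with 1 bar per library and region. Cluster density was above genome density in every library, from 3.05 against 1.55 in control replicate 1 to 21.5 against 4.24 in control replicate 2.

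ATAC cover of the clusters did not separate the genotypes. Peaks covered 2416 bp of the clusters in control replicate 1, 47238 bp in control replicate 2, 34585 bp in cKO replicate 1 and 5716 bp in cKO replicate 2, which is 0.491%, 9.60%, 7.03% and 1.16% of their length. The 2 cKO values lay between the 2 control values. Over the genome the lists covered 0.453%, 2.34%, 2.02% and 0.765%. The order in the clusters followed the length of the lists, which held 40435, 110741, 93767 and 60824 peaks in the same order. A spread remained in lists of equal length, made of the widest peaks of each. There the peaks covered 2416, 24495, 16839 and 5054 bp of the clusters. The values below are from the full lists. The mean fell by 4676.5 bp from control to cKO, and an exact permutation test over the 4 libraries (two-sided) gave p = 1, where 0.333 is the smallest p that 2 against 2 libraries can give. Joined over the 4 lists, the clusters held 114 ATAC regions and the flanks 65. Of these regions, 0 had a peak in both cKO libraries with none in control, or the reverse, against 0.274% for cKO only and 0.123% for control only among 118718 regions of the genome. At shares this small, 0 among so few regions is near the background and says little on genotype. Each genotype has 1 short and 1 long list. Such a region must therefore be called in a short list and missed in the long list of the other genotype.

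The largest class of cluster regions by library was the one called in both long lists and in neither short one. Of the 114 regions, 46 (40.4%) had peaks only in the long lists of control replicate 2 and cKO replicate 1, against 28.0% over the genome, and 12 (10.5%) were called in all 4 libraries, against 28.2%. Of the 15329 regions of the genome that touched an H3K27me3 peak in control, 28.7% were called in the 2 long lists only and 34.1% in all 4. The cluster peaks were also narrow. Their median width was 140 bp in control replicate 1, 365 bp in control replicate 2, 402 bp in cKO replicate 1 and 214.5 bp in cKO replicate 2, each below the median of its own list (210, 474, 485 and 239 bp). All but 1 of the 114 regions lay wholly under H3K27me3 in control and all 114 did in cKO; the exception is the region over the small Hoxb gap. The ATAC cells were sorted from explants and the H3K27me3 tissue was not, so the overlap is one of positions, not of the same cells.

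Few Hox genes were open at a gene end in every library. A peak lay within 1 kb of a gene end at 6 of 39 Hox genes (15.4%) in control replicate 1, where the share over all genes was 55.8%, and at 31 (79.5%) in control replicate 2, against 68.9%. In cKO replicate 1 it was 27 (69.2%) against 67.7%, and in cKO replicate 2 it was 9 (23.1%) against 60.6%. The Hox genes were thus below the background in the short lists and at or above it in the long ones. Only 5 of 39 (12.8%) had such a peak in all 4 libraries, against 55.4% of all genes, and 17 (43.6%) had one in the 2 long lists only, against 6.44%.

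The 5 genes open in all 4 libraries were Hoxa10, Hoxb8, Hoxc10, Hoxc13 and Hoxd9. Hoxa10, Hoxc10 and Hoxd9 are posterior genes known for lumbar, limb and reproductive tract patterning, Hoxc13 is known for its role in hair and nail, and Hoxb8 is a central gene with roles in the spinal cord and in blood progenitors. Within the gene and 1 kb either side, ATAC peaks covered 343, 1618, 993 and 512 bp at Hoxc13 in control replicates 1 and 2 and cKO replicates 1 and 2. At Hoxd9 they covered 315, 1051, 895 and 410 bp in the same order. At each, the 2 long lists gave the highest values and the genotypes overlapped. Hoxa10 had 140, 1289, 1292 and 196 bp. Hoxb8 had 124, 1598, 1384 and 138 bp, and Hoxc10 had 106, 876, 184 and 241 bp. At Hoxc13 the region called in every list ended just outside the gene, 132 bp from its end, and so outside the cluster.

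By position along the axis, 4 of the 5 genes were posterior (16 genes of groups 9 to 13), 1 was central (15 genes of groups 4 to 8) and none was anterior (8 genes of groups 1 to 3). In the long lists the classes were alike: 6, 12 and 13 of the anterior, central and posterior genes in control replicate 2, and 5, 11 and 11 in cKO replicate 1. The 5 genes with a peak in 3 libraries were Hoxa4, Hoxa7, Hoxb5, Hoxd1 and Hoxd8. Of these, 1 was anterior, 4 were central and 0 were posterior, so the order of the classes depends on the number of libraries required. Hoxa11, Hoxc8 and Hoxd12 were among the 4 genes with a peak in 1 library, control replicate 2 in each. The 8 genes with none in any library were Hoxa9, Hoxb1, Hoxb3, Hoxb6, Hoxc4, Hoxc12, Hoxd4 and Hoxd10. The annotated end can lie far from the start in use for genes with several starts, such as Hoxd10, whose RefSeq promoter window did hold ATAC peaks.

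**Figure D5:**
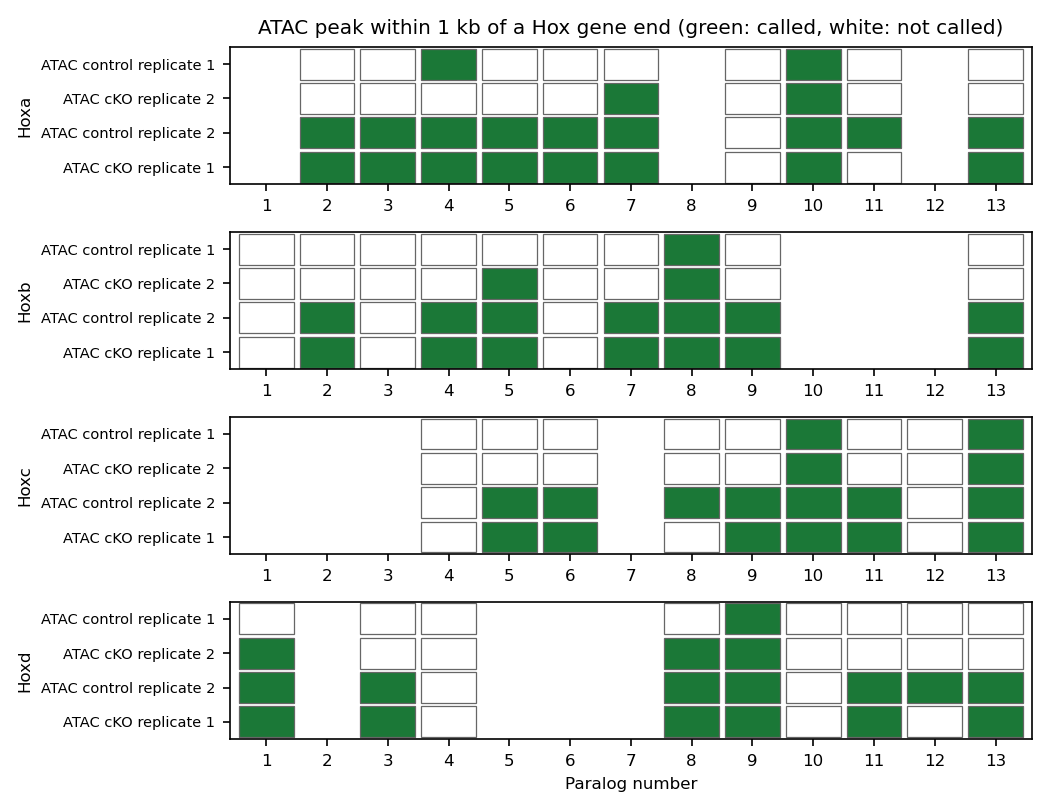
Presence of an ATAC peak within 1 kb of either annotated end of each Hox gene, by cluster (panels), paralog number (columns) and library (rows, the 2 short lists above the 2 long ones); empty positions have no gene or are not shown. Hoxa10, Hoxb8, Hoxc10, Hoxc13 and Hoxd9 are marked in all 4 libraries, and 17 genes in the long lists only.

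The 12 cluster regions called in all 4 libraries lay 3 in Hoxa, 2 in Hoxb, 3 in Hoxc and 4 in Hoxd, and 6 of them, measured from the joined region, were within 1 kb of a gene end. The other 6 lay between genes or deep in a gene, 1 of them at an inner start of Hoxd10. In Hoxa, a region of 674 bp lay between Hoxa7 and Hoxa9 (chr6:52221395-52222068), with peaks of 272, 641, 669 and 312 bp, and it is the one that held the control H3K27ac peak. In Hoxb, a region of 726 bp lay inside Hoxb3 (chr11:96311309-96312034), 4208 bp from its end. In Hoxc, a region of 699 bp lay between Hoxc9 and Hoxc8 (chr15:102987172-102987870), 2669 bp from Hoxc8. In Hoxd, a region of 486 bp lay between Hoxd13 and Hoxd12 (chr2:74672769-74673254), and one of 667 bp inside Hoxd3 (chr2:74715709-74716375). In the flanks 9 regions were called in all 4 libraries. Besides those at Lnpk and Mtx2 they lay under H3K27me3 in control, among them 2 next to Evx2 at 160 and 1922 bp from it. One beyond Hoxb1 (chr11:96397659-96398234), with ATAC peaks of 226, 576, 541 and 484 bp, was covered by H3K27me3 over 100% of its length in control and 11.1% in cKO, a difference between single libraries.

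RefSeq promoter windows (build GRCm38.p6, which is mm10), running from 250 bases before to 50 after a gene's start, were matched to 22 of the 39 Hox genes as 24 windows. ATAC peaks touched 2 windows in all 4 libraries, 1 in 3, 3 in 2 and 4 in 1, and 14 held none. Most Hoxb and Hoxc genes, among them Hoxc10 and Hoxc13, had no matched window, so their starts could not be chosen. The windows of Hoxd10 and Hoxd9 (all 4), Hoxd1 (3) and the second window of Hoxd11 (2) are shown. The Hoxd11 window was chosen among the 3 such windows for the most covered bases. Of the 24 matched windows, those shown were open in the most libraries while lying wholly under H3K27me3. All are on chromosome 2 and on the plus strand, written 5′ to 3′, with capitals for the bases inside an ATAC peak in every library that had one there.
Hoxd10, chr2:74691641-74691940: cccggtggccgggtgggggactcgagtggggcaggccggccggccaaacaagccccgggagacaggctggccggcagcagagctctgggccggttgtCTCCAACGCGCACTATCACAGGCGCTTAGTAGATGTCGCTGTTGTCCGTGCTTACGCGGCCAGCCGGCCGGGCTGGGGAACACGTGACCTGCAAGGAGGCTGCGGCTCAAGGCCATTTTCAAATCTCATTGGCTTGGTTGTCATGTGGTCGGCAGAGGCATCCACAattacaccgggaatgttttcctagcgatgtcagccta
Hoxd9, chr2:74697513-74697812: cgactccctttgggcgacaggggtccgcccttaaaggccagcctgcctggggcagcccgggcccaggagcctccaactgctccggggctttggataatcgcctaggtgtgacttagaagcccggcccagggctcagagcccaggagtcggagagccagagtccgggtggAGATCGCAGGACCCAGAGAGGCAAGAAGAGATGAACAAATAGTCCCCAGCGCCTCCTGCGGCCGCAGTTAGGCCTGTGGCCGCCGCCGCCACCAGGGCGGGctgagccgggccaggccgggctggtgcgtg
Hoxd1, chr2:74762730-74763029: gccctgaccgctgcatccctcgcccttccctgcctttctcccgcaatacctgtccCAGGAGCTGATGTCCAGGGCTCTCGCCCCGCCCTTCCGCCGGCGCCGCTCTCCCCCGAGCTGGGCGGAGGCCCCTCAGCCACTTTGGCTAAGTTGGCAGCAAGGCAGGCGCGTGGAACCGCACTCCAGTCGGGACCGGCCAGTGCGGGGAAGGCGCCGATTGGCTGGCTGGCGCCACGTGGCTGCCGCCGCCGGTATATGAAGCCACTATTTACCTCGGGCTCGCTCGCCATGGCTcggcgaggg
Hoxd11, chr2:74682073-74682372: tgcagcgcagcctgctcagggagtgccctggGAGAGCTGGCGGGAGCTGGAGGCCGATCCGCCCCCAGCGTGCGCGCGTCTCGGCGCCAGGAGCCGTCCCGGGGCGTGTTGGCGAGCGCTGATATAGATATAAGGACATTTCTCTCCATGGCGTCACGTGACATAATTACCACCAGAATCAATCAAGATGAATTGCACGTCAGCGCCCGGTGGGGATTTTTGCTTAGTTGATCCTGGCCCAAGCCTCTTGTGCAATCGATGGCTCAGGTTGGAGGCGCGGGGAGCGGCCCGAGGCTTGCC

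The shared open stretch was 166 bases long at Hoxd10 (positions 98 to 263 of the window), 101 at Hoxd9 (170 to 270), 236 at Hoxd1 (56 to 291) and 269 at Hoxd11 (32 to 300). In the Hoxd10 window the peaks covered 168, 300, 300 and 206 bases in control replicates 1 and 2 and cKO replicates 1 and 2, and in the Hoxd9 window 209, 289, 246 and 131. In both, the genotypes overlapped. H3K27me3 covered all 300 bases of each of the 4 windows in both libraries, and H3K27ac covered none. The windows held 22, 20, 29 and 25 CG pairs, above the median of 13 over 21044 promoter windows of protein-coding genes and of 14.5 over the 24 Hox windows. The median was 11.5 CG pairs over the 14 Hox windows without an ATAC peak. Single windows overlapped: that of Hoxa6, without an ATAC peak, held 26, and that of Hoxd8, with a peak in control replicate 2 only, held 6.

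Both strands of the windows were searched for TGATNNAT, letters of a site for Hox proteins with their Pbx partners, and for the core of a site for the insulator protein CTCF; the matches do not overlap in the Hoxd11 window. TGATNNAT was found in 4 of 24 Hox windows (16.7%) against 7.36% of all promoter windows, and the CTCF core also in 4 (16.7%) against 9.98%. These shares rest on few windows and the difference was not tested. No ATAC peak lay in 3 of the 4 windows with TGATNNAT and in 2 of the 4 with the CTCF core. Of the printed windows, Hoxd11 alone held them, TGATNNAT at positions 178 to 185, inside the open stretch, and the CTCF core at 10 to 21, outside it. A match of letters is not a measured binding site.

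The clusters also hold RNA genes, and they shared the H3K27me3 cover. All 25 long noncoding RNA genes inside the clusters were wholly covered in both libraries, among them Hotair in Hoxc and Haglr in Hoxd, and so were all 6 microRNA genes. In the flanks 5 of 10 long noncoding RNA genes were. Halr1, in the Hoxa flank and outside the block, was covered over 24.5% in control and 17.2% in cKO. The microRNAs are shown because the families that share a seed are spread over different clusters, each copy under the same mark; the sequences are from RefSeq, 5′ to 3′, with the seed (bases 2 to 8) in capitals.
mmu-miR-196b-5p (Mir196b, Hoxa): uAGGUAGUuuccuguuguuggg
mmu-miR-196a-5p (Mir196a-1, Hoxb, and Mir196a-2, Hoxc): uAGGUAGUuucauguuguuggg
mmu-miR-10a-5p (Mir10a, Hoxb): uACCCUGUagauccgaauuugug
mmu-miR-10b-5p (Mir10b, Hoxd): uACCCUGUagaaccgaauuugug
mmu-miR-615-3p (Mir615, Hoxc): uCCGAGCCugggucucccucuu

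The 3 miR-196 genes share the seed AGGUAGU and the 2 miR-10 genes share ACCCUGU. In mouse embryos miR-196 is known to repress Hoxb8. H3K27me3 covered 100% of each of the 6 hairpins in both libraries and none had an H3K27ac peak within 1 kb. ATAC peaks lay within 1 kb of Mir196b and Mir615 in control replicate 2 and cKO replicate 1 and of no other hairpin in any library.

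Related genes elsewhere were taken from lists. Of the ParaHox genes, the sisters of the Hox clusters (Gsx1, Gsx2, Pdx1, Cdx1, Cdx2, Cdx4), with Evx1 and Evx2, 7 of 8 were wholly covered by H3K27me3 in both libraries. The exception was Cdx1, covered over 17.7% in control and 21.4% in cKO. Of all genes, 2.33% in control and 2.32% in cKO were wholly covered. An ATAC peak lay within 1 kb of a gene end at 1 and 6 of these 8 genes in control replicates 1 and 2. In cKO replicates 1 and 2 it was 7 and 2, so the long lists held the most, as at the Hox genes. The Hox cofactors are 9 genes (Meis, Pbx and Pknox genes, among them Meis1, Pbx3 and Pknox2), whose products bind DNA together with Hox proteins. These genes had the reverse pattern of histone marks. None was covered over 50% by H3K27me3. Of all genes only 6.02% in control and 5.85% in cKO were, so 0 of 9 is near the background. All 9 had an H3K27ac peak at a gene end in both libraries, against 61.4% of all genes in each. H3K27ac covered 31257 bp of Meis1 and its surroundings within 1 kb in control and 29374 bp in cKO. Of the 3 cofactor genes with enough H3K27me3 to be tested, 2 were called higher in cKO and 0 lower. The 2 were Pbx3 (6678 bp in control, 10101 bp in cKO) and Pknox2 (3759 and 6335 bp). Over all tested genes 6% were called higher. Such calls were not particular to the cofactors. In the list of 12 retinal homeobox genes, 3 of 9 tested were called higher and 0 lower. For H3K27ac, 1 of 9 tested cofactor genes was called higher, Pbx4 (1618 bp in control, 2508 bp in cKO), and 0 lower. Over all genes tested for that mark 1.9% were called higher.

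Of 12 homeobox genes that act in the retina, 10 had an H3K27ac peak at a gene end in both libraries, against 61.4% of all genes. H3K27me3 covered at least 50% of 4 in control and 3 in cKO, against 6.02% and 5.85% of all genes. The gene that differed was Vsx1, close to the cut at 50.9% in control and 49.1% in cKO. Isl1 and Otx2 carried both marks, each wholly under H3K27me3, with 892 bp and 8295 bp of H3K27ac in control and 857 bp and 7960 bp in cKO. Pou4f2, a regulator of ganglion cells, was wholly under H3K27me3 with no H3K27ac, the pattern of the Hox genes.

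The 6 markers of retinal neurons and progenitors (among them Rax, Pax6, Crx and Otx2) all had H3K27ac at a gene end in both libraries, over 59968 bp in sum in control and 58123 bp in cKO. Of all genes, 61.4% had such a peak in each library. Of 6 markers each, the endothelial list had 3 such genes in control and 2 in cKO, the microglial list 3 and 1, the periocular mesenchyme list 1 and 2, and the pigment epithelium list 2 and 2. The counts of 3 of 6 lie near the share of all genes. The summed H3K27ac of these 4 lists was 27125, 780, 166 and 5962 bp in control and 22093, 494, 436 and 5804 bp in cKO. Most of the endothelial sum in control lay at Kdr (16913 bp) and Pecam1 (7731 bp). Cldn5, Egfl7, Cdh5 and Tie1 held 1522, 818, 141 and 0 bp there. Periocular mesenchyme, which borders the eye, had 4 of 6 markers wholly under H3K27me3 in both libraries. Of all genes, 2.33% in control and 2.32% in cKO were. The part of these cells in the peaks at the Hox clusters was not tested.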

How the data were processed

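ATAC-seq and ChIP-seq peaks were analysed from 8 of 10 samples; the 2 inputs were not analysed here. Per the submitters' processing notes, Bowtie2, deepTools and MACS2 were used with mm10; no version or setting is stated. The deposited files give peak positions, called per library according to the peak names, and a score that is 0 throughout, so no height, p-value or depth was available and precision per peak is unknown. The sources used here give neither the threshold, nor narrow or broad calling, nor use of input. A longer list may come from deeper sequencing.

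Chromosomes 1 to 19 and X were used. Genes came from the RefSeq table of GRCm38.p6, which gives no strand, so both gene ends were used. Covered bases, ends of peaks (bare, and joined over gaps of at most 5 kb) and ATAC regions (overlap of 1 bp) were computed with Python 3.11.15, numpy 2.4.6, pandas 2.3.3 and scipy 1.17.1; the counting was tested on simulated peaks. Histone marks have 1 library per genotype and no test. Replicates are independent experiments per the labels' protocols, and nothing ties a day to a replicate number. Hox genes were named all 39; flanking genes, cluster microRNAs and the members of the related-gene and marker lists were counted, with examples. Some members are counted but not reported singly here. The members and lists were chosen with earlier results of these data known.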

Additional observations from a re-analysis of the deposited data

How the results depend on the processing

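H3K27me3 cover of the clusters stayed between 99.9% and 100% with spans widened by 10 kb, peaks of at least 300 bp or lists of equal length; the count of Hox genes covered over 50% stayed at 39 and the calls at 1.5 fold at 0 under all alternatives run. The joined H3K27me3 limit, as a median over the 8 borders, was 78266.5 bp in control and 86614 bp in cKO. Joining over 2 kb gave 46961 and 54656 bp, peaks of at least 300 bp gave 63393 and 65505 bp, and the unbroken block, chosen after seeing the data, 31183.5 and 33116.5 bp. Joining over 10 kb gave 87316.5 bp in control and left cKO at 86614 bp. These limits follow from the joining rule itself.

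At 2 kb, 1 Hox gene, Hoxa9, had H3K27ac in control. ATAC gene ends rose to 12 in control replicate 1 and 18 in cKO replicate 2 at 2 kb, and fell to 1 and 3 with peaks of at least 300 bp. The 5 prime end alone, known for 22 Hox genes, gave 3 in control replicate 1, 15 in control replicate 2 and 12 in cKO replicate 1. Widest peaks in lists of equal length gave 19 in control replicate 2 and 14 in cKO replicate 1.

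The ATAC difference ran from -27087.5 to 17734.5 bp with 1 library left out, positive without control replicate 2 or cKO replicate 2. Replicate numbers as a block gave -4676.5 bp (exact permutation p = 1, smallest possible 0.5), from 32169 and -41522 bp within pairs. Same-numbered libraries had deviations correlated at -0.274, which does not pair them; crossed numbers gave 3300 and -12653 bp. Regions called by genotype, 0 with all libraries, ran from 0 to 17 for cKO only and from 0 to 54 for control only with 1 library left out: 54 without control replicate 1, 17 without control replicate 2, 14 without cKO replicate 2 and, for control only, 1 without cKO replicate 1. Unknown depth limits every absence of a peak.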
